A study of Homo sapiens with 9 samples.

Results

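The genes of glycolysis and of the response to low oxygen were examined in multicellular tumor spheroids (MTSs) of PC3 cells, a human prostate cancer line derived from a bone metastasis. Members were taken by gene symbol, and all 47 were found among the 27111 genes of the files and among the 17108 genes that passed the filter on low counts. They comprised 18 glycolytic enzymes and regulators of glycolytic flux, 26 other genes induced by hypoxia, and 3 subunits of the hypoxia-inducible factors (HIFs).

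The study asked how the splice forms of NF-YA act on prostate cancer cells. NF-YA is the DNA-binding subunit of the trimeric transcription factor NF-Y, and its long form NF-YAl carries an exon that the short form NF-YAs lacks. The 3 lentiviral PC3 lines compared were all selected with puromycin. Empty holds the vector alone, and the other lines overexpress murine NF-YAl or murine NF-YAs. Each line was a single transduced pool that kept its own NF-YA, so a line and its transgene cannot be told apart. Each library was made from 18 pooled MTSs, seeded with 5000 cells each and grown for 7 days in medium with Matrigel, and each line had 3 libraries from independent experiments. Libraries are given below in the order A, B and C for Empty and NF-YAs and A, B and D for NF-YAl.

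Glycolysis splits glucose into pyruvate. In cells short of oxygen, or in many tumors even with oxygen at hand, lactate dehydrogenase turns that pyruvate into lactate, which leaves the cell together with a proton. Low oxygen stabilises HIF1A and EPAS1 (HIF-2 alpha), since the EGLN prolyl hydroxylases need oxygen to mark these proteins for destruction. Each pairs with ARNT, and between them, not each alone, they switch on glucose transporters, most glycolytic enzymes, acid-handling proteins and angiogenic factors. Spheroids are used to model this state because oxygen falls towards their core, and RNA of a whole MTS sums its outer and inner cells, so that fewer cells of a type and less RNA per cell cannot be told apart.

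Sequencing gave 18076979 to 27163976 expected counts per library. The levels below are CPM, a gene's counts per 1e6 counts of its library, with library size scaled by the trimmed mean of M-values (TMM), and a gene is said to rise or fall where its adjusted p in edgeR's quasi-likelihood test was under 0.01. It is called up-regulated or down-regulated where the log2 fold change also passed 1 in size, and ± after a log2 fold change gives its SE. The targeted gene NFYA averaged 91.8 ± 4.24 CPM for Empty, 341 ± 49.3 for NF-YAl and 261 ± 5.71 for NF-YAs (SD, n = 3). The transgenes are murine and reads were aligned to human transcripts. These levels may thus mix the cells' own NFYA with those murine reads that aligned, and do not measure the degree of overexpression. The keratins KRT8, KRT18 and KRT19 were abundant in every library, with summed levels of 1163 to 1286 CPM for Empty, 731 to 745 for NF-YAl and 723 to 827 for NF-YAs, and all 3 fell in both lines. The 6 markers of leukocytes, endothelium, fibroblasts and smooth muscle summed to 6.42 to 8.38 CPM for Empty, 6.91 to 7.35 for NF-YAl and 2.94 to 3.93 for NF-YAs, and PTPRC, CDH5, DCN and LUM were under 0.5 CPM in each library. The endothelial marker PECAM1 was down-regulated in NF-YAs (-1.73 ± 0.20, adjusted p = 4.80e-05), from 6.27 ± 0.943 to 1.88 ± 0.268 CPM, and its part in the results below was not tested. KLK3 (PSA) was at 0 in every library. Unlike the keratins, the epithelial marker EPCAM was up-regulated in both lines, although it rested on only 24 or 25 reads per Empty library. Its log2 fold change was 2.16 ± 0.25 (adjusted p = 5.49e-05) in NF-YAl and 1.46 ± 0.26 (adjusted p = 0.000878) in NF-YAs. Mean levels were 0.982, 4.42 and 2.71 CPM for Empty, NF-YAl and NF-YAs.

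More of the 47 genes fell than rose in both overexpressing lines, and the strongest falls were in EPAS1, ANGPTL4, NDRG1, ADM and EGLN3. In NF-YAl, 18 of the 47 genes fell and 4 rose against Empty, where 9.54% and 10% of all tested genes did. In NF-YAs, 20 fell and 4 rose, beside 10.5% and 12.1% of all tested genes. With the fold limit, NF-YAl had 5 down-regulated genes (NDRG1, ADM, EGLN3, ANGPTL4 and EPAS1) and 1 up-regulated gene (STC1), where the limit was passed by 3.5% and 4.76% of all genes. NF-YAs had 8 down-regulated genes (those 5 with PFKFB4, SLC2A1 and TMEM45A) and 0 up-regulated ones, beside 3.9% and 5.44% of all genes. DESeq2 also gave 0 up-regulated genes in NF-YAs, as did an unadjusted p under 0.05 in edgeR. The median log2 fold change over the 47 genes was -0.42 in NF-YAl and -0.45 in NF-YAs, while it was under 0.02 in size over all tested genes in each comparison. All 3 libraries of the line lay above Empty for 6 genes of NF-YAl and 7 of NF-YAs, beside 21% and 29.2% of all genes, and below it for 28 and 31, beside 21.4% and 27.1%. Empty enters both comparisons, so its libraries bear on both sets of values. Without Empty replicate B or C, 11 genes in place of 18 fell in NF-YAl. The 4 genes that rose in NF-YAs became 1 without Empty replicate B or C or NF-YAs replicate A or C.

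**Figure D1:**
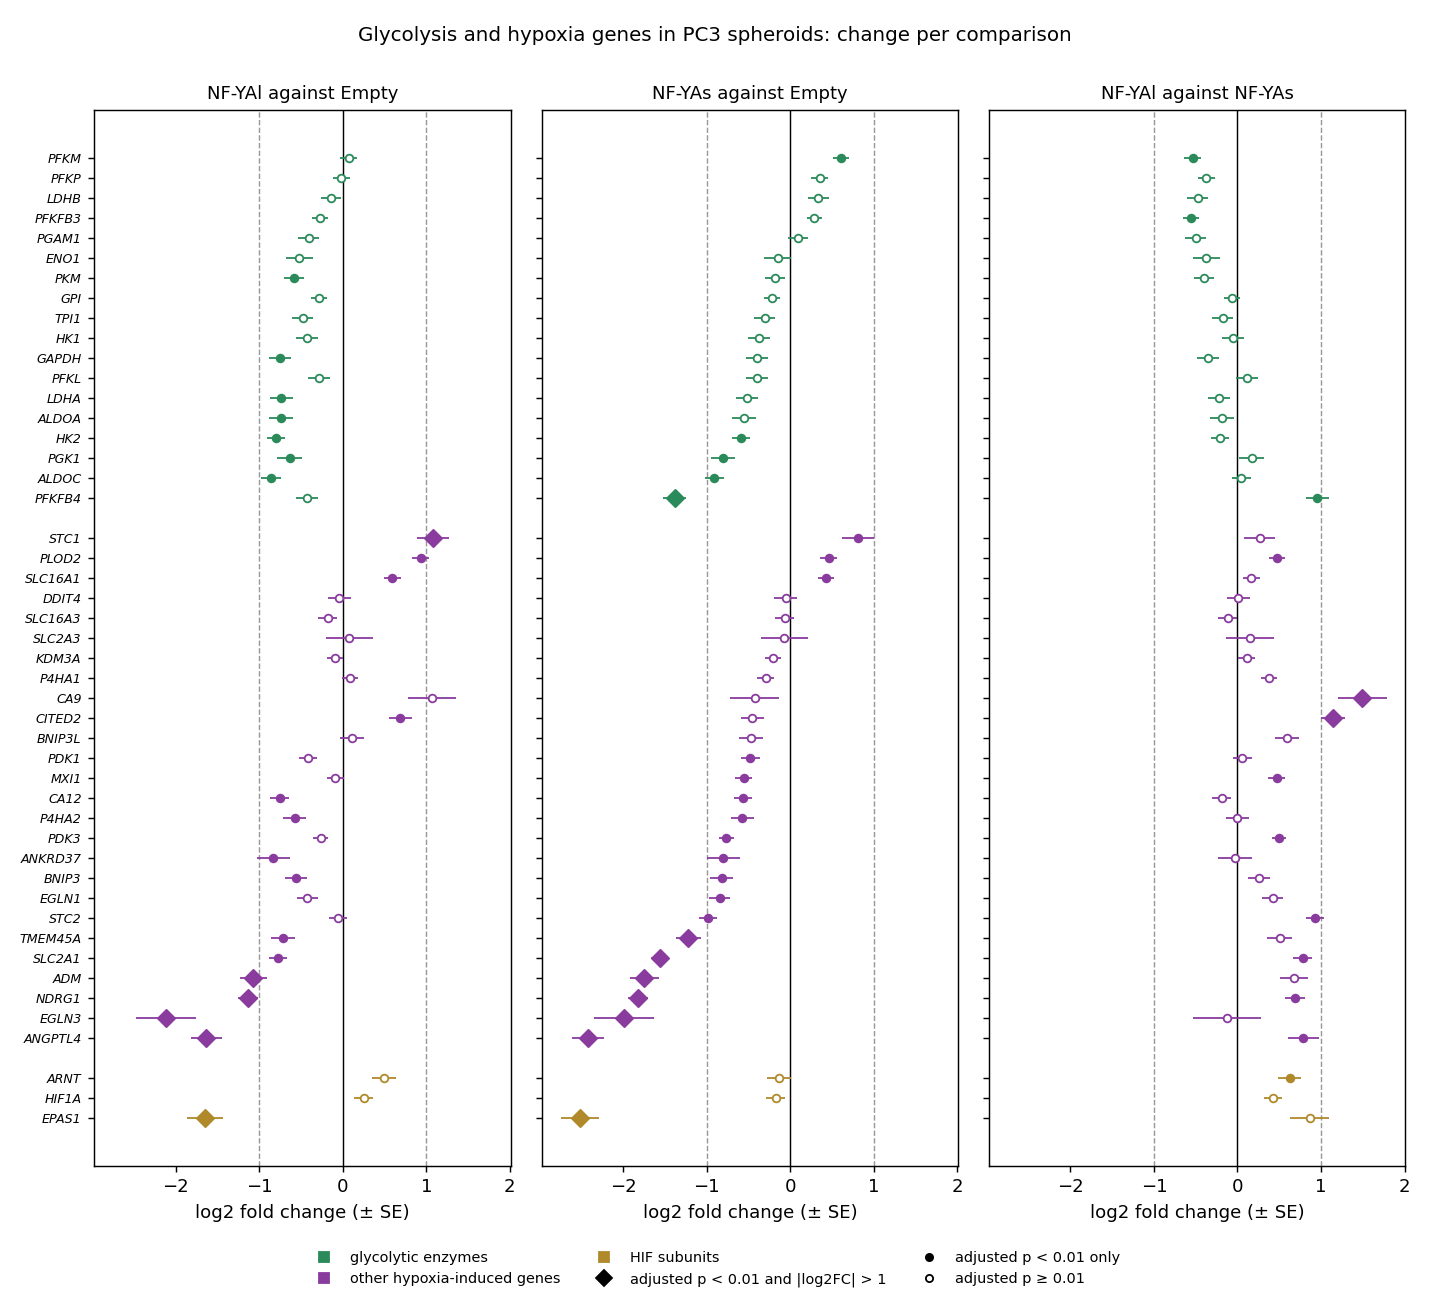
Log2 fold change with its SE for each of the 47 genes (rows) in the 3 comparisons (panels), estimated by edgeR over all 9 libraries. Diamonds passed both the adjusted p and the fold limit, filled circles the adjusted p alone, and open circles neither. Most rows lie left of 0 in the first 2 panels, 36 in NF-YAl and 39 in NF-YAs, while the third panel has 28 rows to the right.

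NF-Y recognises CCAAT boxes in promoters, and HIFs recognise a hypoxia response element whose core reads ACGTG or GCGTG. The promoters that follow belong to the down- or up-regulated members with the largest fold changes that hold either motif, and are shown so that both kinds of element can be seen beside the values below. Each run is the 250 bases before the annotated start in the RefSeq table of GRCh38.p14, written 5′ to 3′ along the gene, with CCAAT, the hypoxia core or their reverse complements (ATTGG for the first, and CACGT or CACGC for the second) in capitals. Motifs were searched on both strands, and CACGTG, the E-box read by other factors, contains ACGTG.
EPAS1 (chr2:46297157-46297406, plus strand): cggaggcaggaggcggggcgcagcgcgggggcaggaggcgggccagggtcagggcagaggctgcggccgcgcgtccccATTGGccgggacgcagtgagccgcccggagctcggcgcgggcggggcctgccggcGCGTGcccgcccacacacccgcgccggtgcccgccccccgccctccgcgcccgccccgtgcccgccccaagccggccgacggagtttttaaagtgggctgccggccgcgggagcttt
ANGPTL4 (chr19:8363905-8364154, plus strand): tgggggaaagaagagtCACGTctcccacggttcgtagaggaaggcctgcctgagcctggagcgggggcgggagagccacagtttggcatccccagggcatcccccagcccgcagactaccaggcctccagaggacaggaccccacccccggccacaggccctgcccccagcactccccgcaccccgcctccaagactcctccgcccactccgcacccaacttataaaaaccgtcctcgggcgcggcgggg
ADM (chr11:10304823-10305072, plus strand): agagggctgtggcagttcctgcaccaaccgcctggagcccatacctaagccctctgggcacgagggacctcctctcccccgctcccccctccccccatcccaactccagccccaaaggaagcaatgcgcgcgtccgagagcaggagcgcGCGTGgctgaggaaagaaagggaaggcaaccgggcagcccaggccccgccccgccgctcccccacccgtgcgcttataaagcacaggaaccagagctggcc
SLC2A1 (chr1:42958869-42959118, minus strand): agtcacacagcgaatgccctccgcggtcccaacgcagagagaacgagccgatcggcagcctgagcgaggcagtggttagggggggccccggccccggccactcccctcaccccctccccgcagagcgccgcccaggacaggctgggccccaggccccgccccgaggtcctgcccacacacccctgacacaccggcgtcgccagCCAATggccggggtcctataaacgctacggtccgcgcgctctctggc
CA9 (chr9:35673678-35673927, plus strand): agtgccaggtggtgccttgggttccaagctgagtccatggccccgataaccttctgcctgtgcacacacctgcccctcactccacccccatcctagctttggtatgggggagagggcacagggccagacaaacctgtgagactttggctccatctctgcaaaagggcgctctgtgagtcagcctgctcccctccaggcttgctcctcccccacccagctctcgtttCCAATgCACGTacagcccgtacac
PFKFB4 (chr3:48556804-48557053, minus strand): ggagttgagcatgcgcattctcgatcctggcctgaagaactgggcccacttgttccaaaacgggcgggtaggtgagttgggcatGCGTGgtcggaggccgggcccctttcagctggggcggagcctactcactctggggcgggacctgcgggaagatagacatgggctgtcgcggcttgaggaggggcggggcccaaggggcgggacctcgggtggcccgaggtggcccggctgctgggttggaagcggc
CA9 has a CCAAT box that starts 24 bases before its transcription start and a hypoxia core that starts 18 bases before it, so that only 1 base lies between the motifs. SLC2A1 has its CCAAT box 47 bases before the start and no hypoxia core in the run shown. EPAS1 holds both, 172 and 117 bases before the start, and the other 3 promoters hold a hypoxia core alone.

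Over all members with an entry in the table (42 of 47, with 74 start sites), CCAAT was found in 35.1% of the promoters from 250 bases before to 50 bases after the start, beside 34.6% of all 35116 promoters of that length. The hypoxia core was found in 68.9% of them, beside 48.4% of all promoters. By gene, 17 of the 18 enzymes, 18 of the 21 other hypoxia-induced genes with an entry and 2 of the 3 HIF subunits had a hypoxia core in at least 1 promoter, while CCAAT was in 7, 12 and 3 of them. A gene with several start sites has more promoters in which to hold a motif. The share of all genes was not counted in this way, so these counts by gene cannot be set against the shares of promoters. These matches describe letters within the windows and say nothing of occupancy. BNIP3L, NDRG1, SLC16A1, SLC2A3 and STC1 had no entry.

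The genes for glucose entry, SLC2A1 and HK2, fell in both lines, and SLC2A1 was lower in NF-YAs than in NF-YAl. SLC2A1 (chr1:43391024-43424564 in GRCh37), which encodes the main glucose transporter GLUT1, stood at 268, 318 and 306 CPM in the Empty libraries, 147, 183 and 189 in those of NF-YAl and 102, 101 and 100.1 in those of NF-YAs. The 3 groups did not overlap, with Empty highest and NF-YAs lowest. Its log2 fold change was -0.78 ± 0.11 (adjusted p = 0.000238) in NF-YAl and -1.56 ± 0.11 (adjusted p = 1.82e-06) in NF-YAs, and the direct difference between NF-YAl and NF-YAs was 0.78 ± 0.11 (adjusted p = 0.000545). SLC2A3, the high-affinity transporter GLUT3, was near its lower limit of measurement, averaging 1.38 ± 0.125 CPM for Empty, 1.46 ± 0.0608 for NF-YAl and 1.33 ± 0.485 for NF-YAs, with no test passed. HK2, the hexokinase that traps glucose as its phosphate in many tumors, stood at 351, 358 and 376 CPM in the Empty libraries, 177, 210.5 and 236 in those of NF-YAl and 236, 242 and 245 in those of NF-YAs. Every library of both lines lay below Empty, with log2 fold changes of -0.80 ± 0.11 (adjusted p = 0.000161) in NF-YAl and -0.59 ± 0.11 (adjusted p = 0.00114) in NF-YAs, and NF-YAl and NF-YAs overlapped (adjusted p of the difference = 0.171). HK1, the housekeeping form, had log2 fold changes of -0.43 and -0.37 that missed the threshold (adjusted p = 0.0243 and 0.0418).

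The genes that set flux through phosphofructokinase went in different directions in NF-YAs. PFKFB4 (chr3:48555117-48599448, overlapping UCN2 on the same strand) encodes a bifunctional enzyme that makes and breaks the activator fructose-2,6-bisphosphate. It stood at 109.7, 125 and 116 CPM in the Empty libraries, 70.4, 106 and 84.4 in those of NF-YAl and 48.0, 45.9 and 40.5 in those of NF-YAs. NF-YAs lay below every other library, with a log2 fold change of -1.38 ± 0.14 (adjusted p = 1.71e-05) against Empty and 0.96 ± 0.14 (adjusted p = 0.000594) for NF-YAl against NF-YAs, while NF-YAl gave -0.43 against Empty (adjusted p = 0.0301). PFKFB3, the related enzyme with strong kinase activity, was lower in NF-YAl than in NF-YAs, at -0.56 ± 0.10 (adjusted p = 0.00163), and neither line passed the test against Empty (-0.27 and 0.29). PFKM, the muscle subunit of phosphofructokinase, rose in NF-YAs, with a log2 fold change of 0.61 ± 0.10 (adjusted p = 0.000509), from 83.2 ± 6.24 to 127 ± 2.79 CPM (SD, n = 3). In the main fit it was the only 1 of the 18 enzymes to rise against Empty in either line. In NF-YAs, DESeq2 gave 2 that rose and a fit of only the 2 groups compared gave 4. PFKM did not pass in NF-YAl (0.07), and its difference between NF-YAl and NF-YAs was -0.54 ± 0.10 (adjusted p = 0.0024). The liver and platelet subunits PFKL and PFKP passed in no comparison, with log2 fold changes of -0.28 and -0.02 for NF-YAl, then -0.40 and 0.36 for NF-YAs.

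In the lower part of the pathway, ALDOA, ALDOC, GAPDH, PGK1, PKM and LDHA fell in NF-YAl, each by less than the fold limit. Per length, in TPM (transcripts per 1e6 transcripts), GAPDH led in Empty at a mean of 3201 over the 3 libraries, followed by LDHA at 1450, PGK1 at 1266, ENO1 at 1262, PKM at 1137, ALDOA at 1102 and TPI1 at 936, while NDRG1 at 432 was the highest of the other hypoxia-induced genes. GAPDH, which makes the first NADH of the pathway, stood at 3083, 3988 and 3726 CPM in the Empty libraries, 1826, 2283 and 2317 in those of NF-YAl and 2603, 2743 and 2858 in those of NF-YAs. Its NF-YAl and NF-YAs libraries all lay below Empty, but only NF-YAl passed the test, with a log2 fold change of -0.75 ± 0.13 (adjusted p = 0.00122) against -0.40 in NF-YAs (adjusted p = 0.0368). PKM, the pyruvate kinase of the last step, stood at 2305, 2795 and 2462 CPM in the Empty libraries, 1480.1, 1838 and 1727 in those of NF-YAl and 2128, 2219 and 2328 in those of NF-YAs. NF-YAl lay below both other groups, at -0.58 ± 0.12 (adjusted p = 0.00295) against Empty, while NF-YAs overlapped Empty at -0.18 (adjusted p = 0.27). The direct difference between NF-YAl and NF-YAs missed the threshold for both genes (adjusted p = 0.0778 for GAPDH and 0.03 for PKM).

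LDHA, which reduces pyruvate to lactate, stood at 2459, 2788 and 2751 CPM in the Empty libraries, 1278, 1695 and 1828 in those of NF-YAl and 1939.8, 1829.8 and 1827 in those of NF-YAs. Every library of the overexpressing lines was below Empty, with a log2 fold change of -0.74 ± 0.13 (adjusted p = 0.00138) in NF-YAl and -0.51 in NF-YAs, just outside the threshold (adjusted p = 0.0104). ALDOC, ALDOA and PGK1 also fell in NF-YAl, at -0.86, -0.73 and -0.63 on the log2 scale. Of these, ALDOC (-0.91 ± 0.12, adjusted p = 9.55e-05) and PGK1 (-0.80 ± 0.15, adjusted p = 0.0013) also fell in NF-YAs. TPI1, ENO1, PGAM1, GPI and LDHB passed in neither line against Empty, and their log2 fold changes ran from -0.52 (ENO1) to -0.14 (LDHB) in NF-YAl and from -0.30 (TPI1) to 0.34 (LDHB) in NF-YAs.

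Counted over the 18 enzymes, 7 fell and 0 rose in NF-YAl, and none passed the fold limit. That is 38.9% and 0% of the class, beside 9.54% and 10% of all tested genes. DESeq2 gave 11 that fell and 0 that rose, and an unadjusted p under 0.05 in edgeR gave 14 and 0. Fold limit included, 0 enzymes passed the unadjusted p in NF-YAl. In CPM, all 3 NF-YAl libraries lay below all 3 Empty libraries for 14 of the 18, beside 21.4% of all tested genes. In TPM, NF-YAl replicate D instead lay above every Empty library for GAPDH, LDHA, PGK1, ENO1, PKM, ALDOA and TPI1. The 18 enzymes took 1.24, 1.18 and 1.08% of TPM in the Empty libraries, and 0.699, 0.780 and 1.47% in those of NF-YAl. TPM is not TMM-scaled, and it also moved the median of all tested genes by 0.24 in NF-YAl against Empty. In NF-YAs 4 enzymes fell (HK2, PFKFB4, ALDOC and PGK1) and PFKM rose, with 7 falling when NF-YAl replicate A was left out of the fit. The 4 falls and 1 rise are 22.2% and 5.56% of the class, beside 10.5% and 12.1% of all tested genes. For NF-YAs, DESeq2 gave 7 enzymes that fell and 2 that rose. A replicate block gave 8 and 2 in NF-YAs, and 11 and 0 in NF-YAl. Fits of only the 2 groups compared reversed the order of the lines, with 9 falls and 4 rises in NF-YAs and 4 and 0 in NF-YAl. Which line had more falling enzymes thus depended on the fit. In NF-YAs 11 of the 18 lay wholly below Empty, beside 27.1% of all genes. Proliferation markers also varied over these libraries. MKI67, TOP2A and CCNB1 summed to 498 to 566 CPM for Empty, 251 to 477 for NF-YAl and 635 to 670 for NF-YAs. None of the 3 passed against Empty in either line, 1 of the 3 was lower in NF-YAl than in NF-YAs, and their part in the enzyme levels was not tested.

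Transporters and enzymes that deal with pyruvate, lactate and acid showed a mixed picture. PDK1 and PDK3 encode kinases that act inside mitochondria, where they inactivate pyruvate dehydrogenase and so hold back the conversion of pyruvate to acetyl-CoA. Both fell in NF-YAs, PDK1 with a log2 fold change of -0.47 ± 0.11 (adjusted p = 0.00522) and PDK3 with -0.76 ± 0.09 (adjusted p = 3.99e-05), and PDK3 was higher in NF-YAl than in NF-YAs (0.50 ± 0.09, adjusted p = 0.00182). Neither passed in NF-YAl against Empty (-0.42 and -0.27). SLC16A1, the lactate and proton transporter MCT1, rose in both lines, with 0.59 ± 0.10 (adjusted p = 0.000741) in NF-YAl and 0.43 ± 0.10 (adjusted p = 0.00525) in NF-YAs, while the hypoxia-induced lactate exporter SLC16A3 (MCT4) gave -0.18 and -0.06 with no test passed. The membrane-bound carbonic anhydrase CA12 fell in both lines, with -0.75 ± 0.11 (adjusted p = 0.000308) in NF-YAl and -0.56 ± 0.11 (adjusted p = 0.00189) in NF-YAs.

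CA9 (chr9:35673925-35681156 in GRCh37, overlapping ARHGEF39 on the opposite strand), the carbonic anhydrase widely used as a marker of hypoxic tumor cells, stood at 13.3, 11.5 and 15.3 CPM in the Empty libraries, 14.2, 30.7 and 39.1 in those of NF-YAl and 11.9, 8.76 and 9.26 in those of NF-YAs. NF-YAl replicate A lay inside the range of Empty, while B and D were above all other libraries. Against Empty, the log2 fold change was 1.07 ± 0.28 (adjusted p = 0.0123) in NF-YAl and -0.43 in NF-YAs (adjusted p = 0.283), so neither passed. The direct difference was 1.49 ± 0.29 (adjusted p = 0.00348), and the 2 lines did not overlap. That call was lost without NF-YAl replicate B (adjusted p = 0.0132), NF-YAs replicate B (0.0221) or NF-YAs replicate C (0.0205), and in a fit of those 2 groups alone (0.0136). Since no source used here says whether counting took account of strand, reads of CA9 and ARHGEF39 may be mixed. Reads of PFKFB4 and UCN2, on the same strand, may be mixed in any case.

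Among the genes of the HIF system itself, the subunits moved differently. EPAS1 (chr2:46520806-46613836) stood at 18.2, 24.9 and 19.8 CPM in the Empty libraries, 6.79, 5.77 and 7.43 in those of NF-YAl and 3.99, 2.29 and 4.65 in those of NF-YAs. All libraries of both lines lay below Empty, and NF-YAs lay below NF-YAl. The log2 fold change was -1.65 ± 0.22 (adjusted p = 0.000135) in NF-YAl and -2.52 ± 0.23 (adjusted p = 8.98e-06) in NF-YAs, the largest fall of the 47 genes in the latter, and the direct difference missed the threshold (0.87, adjusted p = 0.0195). HIF1A stood at 575, 593 and 585 CPM in the Empty libraries, 714, 639 and 731 in those of NF-YAl and 581, 449.7 and 524 in those of NF-YAs. Per length it averaged 169 TPM in Empty beside 4.65 TPM for EPAS1. HIF1A passed in neither line (0.25 in NF-YAl and -0.17 in NF-YAs), and was highest in NF-YAl. ARNT, the shared partner of both alpha subunits, stood at 45.9, 52.5 and 50.6 CPM in the Empty libraries, 87.6, 67.7 and 54.8 in those of NF-YAl and 45.4, 44 and 46.9 in those of NF-YAs, with a difference between NF-YAl and NF-YAs of 0.62 ± 0.14 (adjusted p = 0.00876). HIF activity is set mainly by the stability of its proteins, which these data do not measure.

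EGLN3 (chr14:34393433-34931980), a prolyl hydroxylase that HIF induces and that in turn marks HIF for destruction, stood at 3.65, 2.38 and 5.20 CPM in the Empty libraries, 0.955, 0.981 and 0.657 in those of NF-YAl and 0.970, 0.547 and 1.29 in those of NF-YAs. Both lines lay below Empty without overlap, at -2.11 ± 0.36 (adjusted p = 0.000811) in NF-YAl and -1.99 ± 0.36 (adjusted p = 0.00108) in NF-YAs. This gene rests on few reads, 60 to 132 in an Empty library and 11 to 28 in the others. EGLN1, the main oxygen sensor among the hydroxylases, fell in NF-YAs (-0.84 ± 0.12, adjusted p = 0.000257) and gave -0.42 in NF-YAl (adjusted p = 0.0196). CITED2 (chr6:139692944-139695785), a HIF target that competes with HIF1A for the coactivators CBP and p300, stood at 31.3, 36.8 and 35.6 CPM in the Empty libraries, 69.9, 45.5 and 52.5 in those of NF-YAl and 26.1, 24.7 and 25.2 in those of NF-YAs. NF-YAl lay above both other groups and NF-YAs below both, with 0.69 ± 0.14 (adjusted p = 0.00273) in NF-YAl, -0.45 in NF-YAs (adjusted p = 0.0276) and a direct difference of 1.14 ± 0.14 (adjusted p = 0.000233). Without NF-YAl replicate A, the highest library, that difference was 0.95 and no longer passed the fold limit.

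Outside the HIF system, the targets that fell most were ANGPTL4, NDRG1 and ADM, and the direct test placed ANGPTL4 and NDRG1 lower in NF-YAs than in NF-YAl. ANGPTL4 (chr19:8428173-8439254), a secreted inhibitor of lipoprotein lipase, stood at 139.7, 199 and 140.3 CPM in the Empty libraries, 44.1, 51.0 and 59.3 in those of NF-YAl and 32.9, 34.0 and 22.5 in those of NF-YAs. The groups did not overlap, and the log2 fold change was -1.63 ± 0.18 (adjusted p = 4.34e-05) in NF-YAl and -2.42 ± 0.19 (adjusted p = 2.98e-06) in NF-YAs. NDRG1, a stress-response gene strongly induced by hypoxia, stood at 989, 1147 and 1285 CPM in the Empty libraries, 455, 527 and 580.3 in those of NF-YAl and 331, 323 and 313 in those of NF-YAs. It too gave 3 separate groups, with -1.13 ± 0.12 (adjusted p = 3.46e-05) in NF-YAl and -1.82 ± 0.12 (adjusted p = 1.45e-06) in NF-YAs. ADM (chr11:10326620-10328944), which encodes the vasodilator peptide adrenomedullin, stood at 54.2, 68.6 and 74.5 CPM in the Empty libraries, 24.5, 31.6 and 37.7 in those of NF-YAl and 19.7, 22.1 and 17.1 in those of NF-YAs. Its 3 groups were also separate, with -1.07 ± 0.16 (adjusted p = 0.000398) in NF-YAl and -1.74 ± 0.17 (adjusted p = 1.31e-05) in NF-YAs, and the first of these was -0.97 without Empty replicate C and -0.92 without NF-YAl replicate A, under the fold limit. The direct differences were 0.79 ± 0.18 (adjusted p = 0.00924) for ANGPTL4 and 0.69 ± 0.12 (adjusted p = 0.00192) for NDRG1, and for ADM 0.67 (adjusted p = 0.0133).

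TMEM45A (chr3:100211463-100296288), a hypoxia-induced membrane protein, stood at 43.5, 60.4 and 57.0 CPM in the Empty libraries, 30.0, 31.0 and 36.9 in those of NF-YAl and 24.8, 19.0 and 25.3 in those of NF-YAs. Empty lay above both lines and NF-YAs was lowest, with -0.72 ± 0.15 (adjusted p = 0.00302) in NF-YAl and -1.22 ± 0.15 (adjusted p = 7.50e-05) in NF-YAs. The direct difference between NF-YAl and NF-YAs missed the threshold (0.50, adjusted p = 0.0307). The secreted glycoproteins STC1 and STC2 are paralogs that moved in different ways. STC1 stood at 14.6, 9.06 and 14.3 CPM in the Empty libraries, 33.3, 25.2 and 21.8 in those of NF-YAl and 21.2, 21.8 and 23.5 in those of NF-YAs, with both lines above Empty, at 1.08 ± 0.19 (adjusted p = 0.00113) in NF-YAl and 0.81 ± 0.19 (adjusted p = 0.00599) in NF-YAs. Its NF-YAl value was 0.88 without Empty replicate B and 0.89 without NF-YAl replicate A, under the fold limit. STC2 fell in NF-YAs, with -0.99 ± 0.11 (adjusted p = 3.20e-05) against -0.05 in NF-YAl (adjusted p = 0.749), and the lines differed directly by 0.93 ± 0.11 (adjusted p = 0.000134). The mitophagy receptor BNIP3 fell in both lines (-0.56 and -0.82), while its relative BNIP3L gave 0.12 and -0.47 with no test passed.

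**Figure D2:**
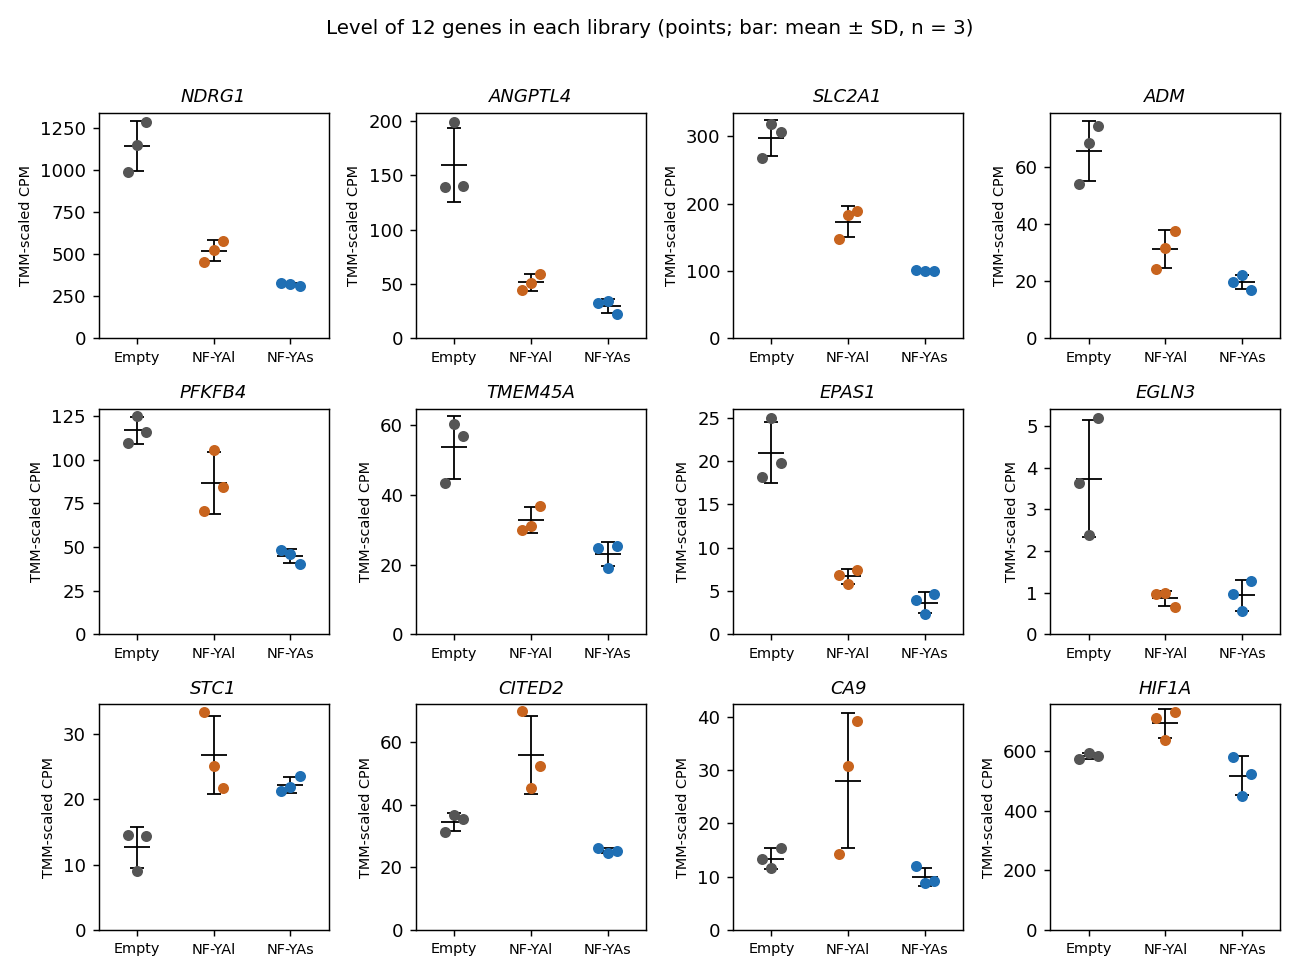
TMM-scaled CPM of 12 genes in each of the 9 libraries, on linear axes that start at 0, with the mean and SD of each group (n = 3). NDRG1, ANGPTL4, SLC2A1 and ADM step down from Empty through NF-YAl to NF-YAs, CITED2 is highest in NF-YAl, and CA9 in NF-YAl spreads from 14.2 to 39.1 CPM.

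Genes that modify collagen in the secretory pathway did not move as a block. PLOD2, a lysyl hydroxylase whose product allows collagen to be cross-linked, rose in both lines, with 0.93 ± 0.10 (adjusted p = 3.13e-05) in NF-YAl and 0.46 ± 0.10 (adjusted p = 0.00339) in NF-YAs, and more in NF-YAl (0.47 ± 0.10, adjusted p = 0.00521). P4HA2, a prolyl hydroxylase subunit for collagen, fell in both lines, with -0.57 ± 0.14 (adjusted p = 0.00735) in NF-YAl and -0.57 ± 0.14 (adjusted p = 0.00665) in NF-YAs. P4HA1, the other subunit gene, passed in neither (0.09 and -0.29). Of the remaining targets, ANKRD37 fell in both lines (-0.83 and -0.80), and the MYC antagonist MXI1 fell in NF-YAs (-0.56 ± 0.10, adjusted p = 0.00106) and was higher in NF-YAl than in NF-YAs (0.47 ± 0.10, adjusted p = 0.00619). KDM3A, a histone demethylase, and DDIT4, an inhibitor of mTORC1, passed in no comparison, with log2 fold changes of -0.09 and -0.04 for NF-YAl, then -0.20 and -0.05 for NF-YAs.

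Set against each other, the enzymes and the other hypoxia-induced genes changed by different amounts in the 2 lines. In NF-YAl the median log2 fold change was -0.45 over the 18 enzymes, with single values from -0.86 to 0.07, and -0.22 over the 26 other genes, from -2.11 to 1.08. In NF-YAs it was -0.34 over the enzymes, from -1.38 to 0.61, and -0.56 over the other genes, from -2.42 to 0.81. Of the 26 other genes, 10 fell and 4 rose in NF-YAl, while 15 fell and 3 rose in NF-YAs. In NF-YAl that is 38.5% and 15.4% of the class, beside 9.54% and 10% of all tested genes. In NF-YAs it is 57.7% and 11.5%, beside 10.5% and 12.1%, so the share that rose was near that of all genes. Without Empty replicate B or C, the 10 that fell in NF-YAl became 6, the 7 enzymes became 4, and the 15 that fell in NF-YAs became 11. The 3 that rose in NF-YAs became 0 without Empty replicate B or C or NF-YAs replicate A or C. These medians are a description of genes picked for their function, and the classes were not tested against each other.

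Set directly against NF-YAs, NF-YAl had higher levels of 9 of the 26 other hypoxia-induced genes, while 3 of the 18 enzymes passed in either direction. Empty enters this contrast only through the filter on low counts, the TMM scaling, the shared estimate of spread and the adjustment of p-values. Of the 47 genes, 11 were higher in NF-YAl and 2 lower, where 4.7% of all tested genes were higher and 6.25% lower. Among the 26 other hypoxia-induced genes, 9 were higher in NF-YAl and 0 lower, the median difference was 0.40, and for 14 all libraries of NF-YAl exceeded all those of NF-YAs, as for 18.6% of all genes. The 9 were CA9, SLC2A1, PDK3, NDRG1, PLOD2, ANGPTL4, MXI1, STC2 and CITED2. Among the 18 enzymes only PFKFB4 was higher and 2 were lower (PFKM and PFKFB3), which is 5.56% and 11.1% of the class, the median difference was -0.22, and 8 lay wholly below NF-YAs, beside 20.9% of all genes. At an unadjusted p under 0.05 in edgeR, 14 of the other genes were higher and 0 lower, and 1 enzyme was higher and 8 lower. DESeq2 gave 12 other genes higher and 0 lower, and 1 enzyme higher and 6 lower. With the fold limit, CA9 and CITED2 were up-regulated and 0 genes down-regulated, where 1.74% and 2.86% of all genes passed. DESeq2 and the unadjusted p also gave 0 down-regulated genes.

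These counts leaned on single libraries. The 9 other genes that were higher became 6 without Empty replicate C, NF-YAl replicate B or NF-YAs replicate A, and 3 without NF-YAs replicate B or C. The 2 lower enzymes became 1 without NF-YAl replicate B or NF-YAs replicate A or C, 0 without NF-YAs replicate B, and 4 without NF-YAl replicate D. The median difference of the other genes stayed between 0.35 and 0.43 under the 9 omissions. That of the enzymes stayed between -0.31 and -0.21 in 8 of them and was -0.10 without NF-YAl replicate A.

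**Figure D3:**
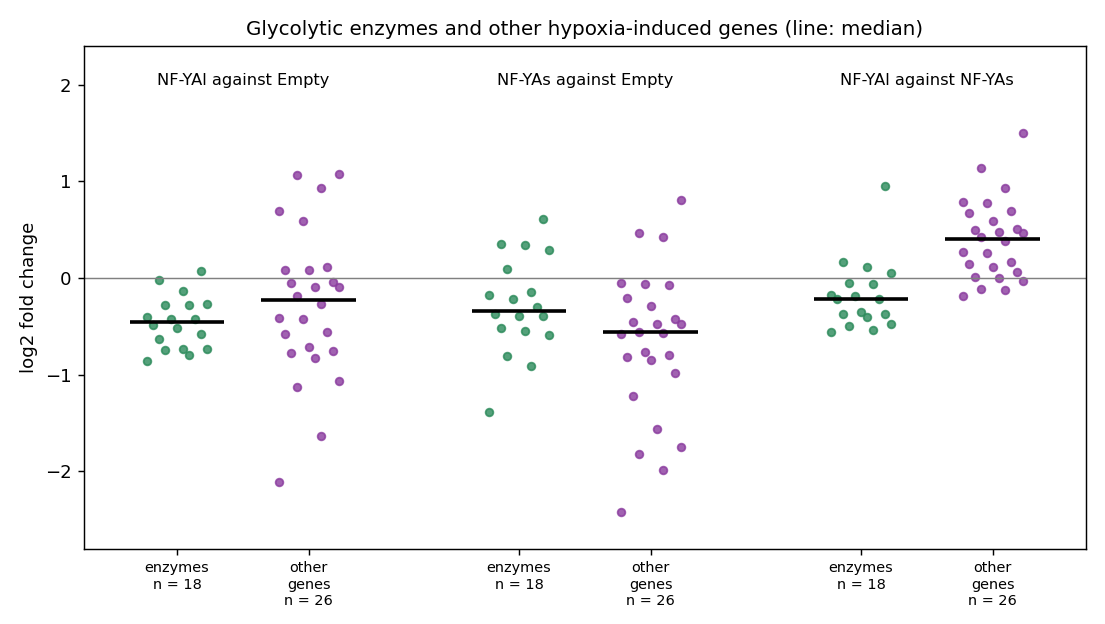
Log2 fold change of each gene (points) in the 3 comparisons, with the median of each class as a line, for the 18 glycolytic enzymes and the 26 other hypoxia-induced genes. The enzymes sit lower than the other genes in NF-YAl against NF-YAs, with medians of -0.22 and 0.40, and higher in NF-YAs against Empty, with medians of -0.34 and -0.56.

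Several steps can be served by related genes, and their relative use was followed as a share of summed TPM within each library, which does not depend on the scaling between libraries. The LDHA share of LDHA and LDHB was 86.9, 86.4 and 88.0% in the Empty libraries, 80.3, 83.3 and 81.2% in those of NF-YAl and 78.3, 79.8 and 78.5% in those of NF-YAs. The 3 groups did not overlap, and the mean was 87.1% ± 0.841 for Empty, 81.6% ± 1.56 for NF-YAl and 78.8% ± 0.793 for NF-YAs (SD, n = 3). As a share of expected counts in place of TPM, the LDHA difference from Empty was -3.59 percentage points with NF-YAl and -5.41 with NF-YAs, where TPM gave -5.51 and -8.25. The difference between the lines was then 1.82 in place of 2.74 points. The PFKFB4 share of PFKFB3 and PFKFB4 was 56.9, 56.9 and 56.0% in the Empty libraries, 48.3, 57.8 and 53.7% in those of NF-YAl and 30.7, 27.6 and 28.4% in those of NF-YAs. NF-YAs lay apart from both other groups, and NF-YAl overlapped Empty, with a difference of -3.34 points that was -0.868 without NF-YAl replicate A and -5.62 without NF-YAl replicate B. The SLC16A3 share of SLC16A1 and SLC16A3 averaged 81.8% ± 0.809 for Empty, 72.2% ± 2.72 for NF-YAl and 76.2% ± 2.02 for NF-YAs, below Empty in every library of both lines.

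PFKP made up 24.3% ± 0.302 of the 3 phosphofructokinase subunits in Empty, against 27% ± 2.51 with NF-YAl and 31.5% ± 0.685 with NF-YAs, again with no overlap. The NF-YAl difference of 2.77 points was 1.42 without NF-YAl replicate A. HK2 took 28% ± 2.79 of the hexokinase pair in Empty and 23.0% ± 0.811 in NF-YAl without overlap, and 24.9% ± 0.446 in NF-YAs, which overlapped Empty and differed from it by -3.13 points, or -4.74 without Empty replicate B. For pairs of groups that did not overlap, the exact two-sided permutation p was 0.1, the smallest that 3 libraries against 3 allow, and 0.159 after adjustment over the 27 share tests, so no share passed. The PKM1 form, defined here by the transcripts NM_182470 and NM_182471 against NM_002654 for PKM2, held 0.0537% to 0.232% of the TPM of these transcripts in a library. A further PKM transcript, NM_001206799, was placed in neither form and is outside this share. It held 232 to 440.5 TPM in a library, beside 484 to 1024 TPM for NM_002654, so the share covers a part of PKM only.

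**Figure D4:**
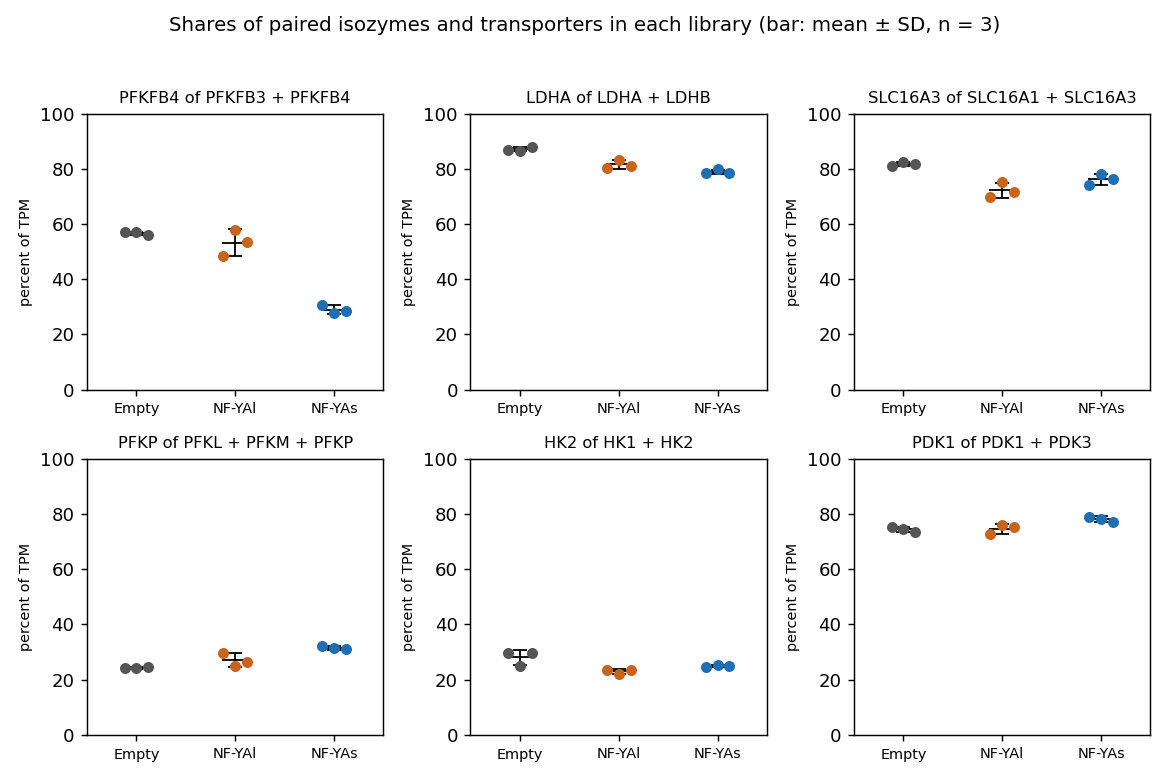
Share of summed TPM taken by 1 gene of a pair or trio, in percent, in each of the 9 libraries, with the mean and SD of each group (n = 3). The LDHA share steps down from 87.1% for Empty to 81.6% for NF-YAl and 78.8% for NF-YAs, and the PFKFB4 share drops to 28.9% in NF-YAs.

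A wider list of 73 further genes of glycolysis, its branches and the hypoxia response was counted in the same way, of which 65 could be tested. In NF-YAl 10 fell and 4 rose, with 2 down-regulated, HILPDA and ARNT2, and 0 up-regulated. Of all tested genes, 3.5% were down-regulated there and 4.76% up-regulated. In NF-YAs 23 fell and 4 rose, with 9 down-regulated and 1 up-regulated, beside 3.9% and 5.44% of all genes for the fold limit. HILPDA, a lipid droplet protein induced by HIF, stood at 74.4, 88.5 and 88.0 CPM in the Empty libraries, 21.1, 32.2 and 35.4 in those of NF-YAl and 22.9, 21.0 and 19.9 in those of NF-YAs, with both lines wholly below Empty (-1.50 ± 0.16, adjusted p = 3.50e-05 and -1.98 ± 0.17 (adjusted p = 5.16e-06)). ARNT2, a relative of ARNT, was down-regulated in NF-YAl (-2.23 ± 0.37, adjusted p = 0.000755), and CXCR4, a chemokine receptor, in NF-YAs (-1.53 ± 0.20, adjusted p = 9.66e-05). PDK2, a further pyruvate dehydrogenase kinase, was the gene up-regulated in NF-YAs (1.07 ± 0.12, adjusted p = 4.34e-05). Between the lines, 6 of the 65 were higher in NF-YAl, with CXCR4 up-regulated (1.42 ± 0.20, adjusted p = 0.00047), and 2 were lower, among them the lysyl oxidase relative LOXL2 (-1.01 ± 0.12, adjusted p = 0.000129). These are 9.23% and 3.08% of the list, beside 4.7% and 6.25% of all tested genes. The share of this list that fell was 15.4% in NF-YAl and 35.4% in NF-YAs, beside the 9.54% and 10.5% of all tested genes. The share that rose was 6.15% in each line, under the 10% and 12.1% of all tested genes.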

How the data were processed

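Total RNA of PC3 MTSs was sequenced in 3 libraries per line. The authors made stranded libraries, aligned reads to RefSeq transcripts of GRCh37 (hg19 in the labels) with bowtie2 inside RSEM 1.3.1, and deposited for each gene and transcript the expected count, which is not normalized, and the TPM, corrected for length. The deposited percent of a gene's TPM per transcript was not used. Whether strand was used in counting is not given in the sources used here.

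The counts, rounded to whole numbers, were fitted in edgeR 4.0.16 under R 4.3.3 (filterByExpr, TMM, quasi-likelihood F test, all 9 libraries in 1 fit). P-values were adjusted by Benjamini-Hochberg over all 17108 tested genes, and SEs are |log2FC| over the square root of F. A call needed an adjusted p under 0.01, and for up- or down-regulation a |log2FC| above 1. The alternatives were DESeq2 1.42.0, relative log expression (RLE) scaling, no filter, a minimum of 10 counts in all libraries, only the 2 groups compared, a replicate block, an adjusted p under 0.05, TPM, and leaving out each library. TPM relative to its all-gene median was added after seeing the data.

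The members, classes and lists were chosen with earlier results of these data known. Each value in every library was given for members called in at least 1 comparison and for HIF1A, EPAS1, ARNT, GAPDH, PKM, LDHA, SLC2A1 and HK2, with at most the 3 called genes of largest |log2FC| per comparison and direction from the wider list. Further statistics were printed for other members that passed the test. Shares of TPM were tested by exact permutation. The paper's methods, not the labels, give the libraries as independent experiments, and libraries of 1 line differed by more than counting error. The p-values thus measure the spread between these samples of 1 line per construct. Ribosomal RNA took 2.66 to 7.71% of counts. Gene positions are from GENCODE annotation of GRCh37, promoters from RefSeq (GRCh38.p14). Figures were drawn with matplotlib 3.10.9 and pandas 2.3.3 in Python 3.11.15. Some further genes are not reported here.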

Additional observations from a re-analysis of the deposited data

Results flagged for a closer look

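The 2 overexpressing lines differed for 2 genes past the fold limit, by edgeR's test of the difference between those lines. For CA9 the difference was 1.49 on the log2 scale, and every NF-YAl library was above every NF-YAs library, although replicate A of NF-YAl lay within the range of Empty. Neither line passed for CA9 against Empty (adjusted p = 0.0123 in NF-YAl and 0.283 in NF-YAs). For CITED2 the difference was 1.14, again with no overlap in any of the 3 libraries per line. Values of the other members that differed between the lines are given with them above.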

How the results depend on the processing

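Of the 256 values of single up- or down-regulated members under the alternatives, 247 kept their call, 9 lost it and 0 changed sign. The 9 were ADM and STC1 in NF-YAl and CITED2 between the lines without single libraries, and CA9 between the lines without single libraries or in the fit of 2 groups, with the values given above. The cause was not tested. RLE scaling moved no count of members. Up-regulated members in NF-YAl against Empty numbered 2 by DESeq2, without the filter and at an adjusted p under 0.05, in place of 1, and 0 to 1 with a library left out. Members lower in that comparison were 28 at an adjusted p under 0.05, in place of 18, and 11 to 22 with a library left out. Members higher in NF-YAs against Empty were 7 in the fit of 2 groups, in place of 4, and 1 to 5 with a library left out. Between the lines, 1 member was up-regulated in the fit of 2 groups, in place of 2, and 1 to 3 with a library left out. Members higher in NF-YAl than in NF-YAs were 6 in the fit of 2 groups and 18 at an adjusted p under 0.05, in place of 11, and 4 to 12 with a library left out. Members lower were 6 by DESeq2, 4 with the replicate block and 6 at an adjusted p under 0.05, in place of 2, and 0 to 4 with a library left out. The median of the enzymes in NF-YAs against Empty ran from -0.42 to -0.23 with a library left out. TPM moved the median of all tested genes by 0.24 (NF-YAl) and 0.15 (NF-YAs) against Empty, and gave medians of -0.16 and -0.0043 for enzymes and other genes of NF-YAl, then -0.15 and -0.35 for NF-YAs. Relative to that shift they were -0.41, -0.26, -0.30 and -0.50. Same-lettered libraries deviated together only weakly (mean correlation across genes 0.116 over 7 pairs, from -0.0671 to 0.315, beside -0.0404 over 20 other pairs), so the letters were not taken to pair them. The replicate block added 7, 6 and 3 members to those that passed in the comparisons of NF-YAl with Empty, of NF-YAs with Empty and between the lines, and lost 0. Depth limits EGLN3 and SLC2A3, which rest on few reads.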
